A study of Mus musculus with 24 samples.

Results

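Protein phosphatase 1 (PP1) was followed through 10 of its subunit genes, which were Ppp1r3a, Ppp1r3b, Ppp1r3c, Ppp1r3d, Ppp1r27, Ppp1ca, Ppp1cb, Ppp1cc, Ppp1r1a and Ppp1r2, out of 47643 gene IDs in the count table. The genes were taken by symbol, and each symbol matched 1 ID. The family was selected on the fold changes and p-values of smoke against air of Ppp1r3c and Ppp1r27, which ranked 2 and 3 by p-value among all tested genes, both lower under smoke. Values of the 10 genes in smoke and air are therefore given as a description, with no p-value. The material was plantaris, a fast hindlimb muscle, from wild type C57BL/6 mice, of which 11 samples were from normal air and 13 from tobacco smoke given over 16 weeks. No transgene or mutation was present in either group, and the age of the mice was not stated in the sources used here. Messenger RNA was measured by 3′-end sequencing with 2515697 to 4528845 counts per sample. The labels number the samples within a group and do not say that each came from a separate mouse, so p-values measure the spread between these samples.

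PP1 is a serine/threonine phosphatase whose catalytic subunit acts in complexes with regulatory subunits that choose its place and its substrates. In skeletal muscle, glycogen-targeting subunits hold the enzyme at the glycogen particle, where it dephosphorylates glycogen synthase, phosphorylase and phosphorylase kinase and so favours glycogen storage. Protein kinase A (PKA) opposes this, in part by activating an inhibitor of PP1.

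All 10 skeletal muscle markers (Acta1, Ckm, Myh4 and others) passed the expression filter, with a median summed level of 160500 CPM (counts relative to the library total, where 3 counts come to 0.662 to 1.19 CPM depending on the sample) in air and 164700 CPM in smoke. edgeR called 0 of them, with 2 at an unadjusted p under 0.05, while DESeq2 and voom each called Myh2, a fast myosin heavy chain (log2 fold change −0.27, edgeR adjusted p = 0.0628, under the mean of air in 11 of 13 smoke samples). Of the markers of other cells, 3 of 5 blood genes, the globins Hba-a2, Hbb-bs and Hbb-bt, were lower under smoke and 4 of 6 Schwann cell genes (Pmp22, Prx and Ncmap among them) were higher by the edgeR quasi-likelihood test at an adjusted p under 0.05, although limma voom called 1 Schwann cell gene and DESeq2 called Alas2 in place of Hba-a2. The summed level of the blood list was 483 to 1434 CPM in air and 366 to 876 CPM in smoke, and that of the Schwann cell list 118 to 277 CPM in air and 176 to 882 CPM in smoke. Among the 24 tested markers of adipocytes, endothelium, macrophages, fibroblasts and tendon, smooth muscle and satellite cells, edgeR called 0, with 8 at an unadjusted p under 0.05, and DESeq2 and voom each called 1. No marker was at 0 in every sample. The part of these cells in the results below was not tested, except for a fit with the blood score, which left the fold changes of Ppp1r3c and Ppp1r27 at −0.75 (SE 0.11) and −0.75 (SE 0.11). In whole muscle, fewer cells of a type and less RNA per cell cannot be told apart.

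The upstream sequences of Ppp1r3c, Ppp1r27 and Ppp1r3a are shown because the first pair held the called members and Ppp1r3a was the other glycogen-targeting gene that passed the expression filter. They come from RefSeq on GRCm38.p6, are written 5′ to 3′ on the gene's minus strand, and end at the last base before the annotated start. For Ppp1r3c the GENCODE M21 start lies 49 bases upstream of the RefSeq start, so its sequence stops there. Promoter windows were found for 7 of the 10 genes. In these lines capitals mark matches to 8 motifs searched on both strands in the 250 bases before the RefSeq start: the clock-type E-box CACGTG, the myogenic-type E-box CAGCTG, the TATA element TATAAA, a MEF2-type element, the D-box forms TTATGTAA and TTACGTAA, the cAMP response element TGACGTCA, and the core element of the aryl hydrocarbon receptor, TNGCGTG. The TATA element read on the reverse strand can overlap the MEF2-type element, as it does in Ppp1r3a.
Ppp1r3c, chr19:36736654-36736854: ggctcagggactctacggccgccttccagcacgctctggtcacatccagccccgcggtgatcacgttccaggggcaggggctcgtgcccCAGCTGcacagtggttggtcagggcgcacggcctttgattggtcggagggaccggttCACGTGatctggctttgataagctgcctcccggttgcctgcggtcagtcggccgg
Ppp1r27, chr11:120551133-120551382: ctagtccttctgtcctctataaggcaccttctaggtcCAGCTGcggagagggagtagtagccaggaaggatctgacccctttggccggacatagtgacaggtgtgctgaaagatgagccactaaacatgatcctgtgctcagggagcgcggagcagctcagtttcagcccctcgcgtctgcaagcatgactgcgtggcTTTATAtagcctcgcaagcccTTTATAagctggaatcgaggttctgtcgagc
Ppp1r3a, chr6:14755275-14755524: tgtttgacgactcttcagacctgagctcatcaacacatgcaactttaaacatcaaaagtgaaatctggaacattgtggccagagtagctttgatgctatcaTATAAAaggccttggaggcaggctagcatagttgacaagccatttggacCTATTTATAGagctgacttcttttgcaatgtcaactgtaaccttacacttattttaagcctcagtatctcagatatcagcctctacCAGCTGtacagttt

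Each of the 3 windows holds 1 CAGCTG, a motif present in 12.8% of 27025 windows of the same length over all genes. Ppp1r3c has a CACGTG 104 bases before its RefSeq start, a motif found in 6.05% of all windows, and Ppp1r3d has one 226 bases before its start. Ppp1r27 has a pair of TATAAA matches on the reverse strand, 52 and 31 bases before its start, a motif found in 13% of windows. Ppp1r3a carries the MEF2-type element 100 bases before its start, found in 0.144% of windows, and a separate TATAAA at 149 bases. The D-box forms, the cAMP response element and TNGCGTG were not matched in the windows of the 7 genes, which says only that these letters are not in these windows. The matches are descriptions of sequence and not of binding.

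Among the reads of Ppp1r3a, Ppp1r3b, Ppp1r3c and Ppp1r3d, almost all were of Ppp1r3c, and its reads were lower under smoke. Ppp1r3c, which targets PP1 to glycogen in muscle, liver and other tissues (chromosome 19, 36731731 to 36736653 on GRCm38, minus strand), ranged from 749 to 1277 CPM in air with a median of 961. In smoke it ranged from 457 to 804 CPM with a median of 532. The groups overlapped: 11 of 13 smoke samples lay below every air sample, smoke replicates 7 and 11 reached into the air range, and 13 of 13 lay below the air mean. The means were 978 ± 171 CPM (SD, n = 11) and 586 ± 117 CPM (SD, n = 13), a log2 fold change of −0.74 (SE 0.093). Counts of 1470 to 5146 per sample gave a counting error of 1.69% (air) and 2.23% (smoke) if each read is taken as a separate molecule, and the spread between samples was 17.5% and 19.9%.

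Ppp1r3a, the large glycogen-targeting subunit of striated muscle (chromosome 6, 14713977 to 14755274, minus strand), ranged from 27.5 to 55.7 CPM in air (median 36.1) and from 31.0 to 52.9 CPM in smoke (median 43.0). Its groups overlapped almost fully, with 9 of 13 smoke samples above the air mean. The log2 fold change was 0.13 (SE 0.095), with a 95% interval from −0.071 to 0.33.

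Ppp1r3b, best known in liver, had 11 counts in total over the air samples and 8 over the smoke samples, at most 4 in any sample. Ppp1r3d had 31 and 49 counts, from 0 to 9 per sample. Both lay near or under 3 counts on average and did not pass the expression filter. In the fit with no filter their log2 fold changes were −0.57 (SE 0.63) and 0.46 (SE 0.41), and neither was called.

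With 3′-end tags a transcript gives about the same number of reads whatever its length, so levels of different genes were compared as reads within each sample. Ppp1r3c took 96.1 ± 0.782% (SD, n = 11) of the reads of the 4 glycogen-targeting genes in air and 92.95 ± 1.76% (SD, n = 13) in smoke. For each Ppp1r3a read there were 26.5 ± 6.09 (SD) Ppp1r3c reads in air, ranging from 19.5 to 37.8, and 14.7 ± 4.53 (SD) in smoke, ranging from 9.67 to 24.6. The ranges overlapped, and Ppp1r3c had the most reads of Ppp1r3a to Ppp1r3d in every sample. Reads at a transcript end outside the annotation are not counted, so these shares and ratios of reads need not equal those of transcripts.

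**Figure D1:**
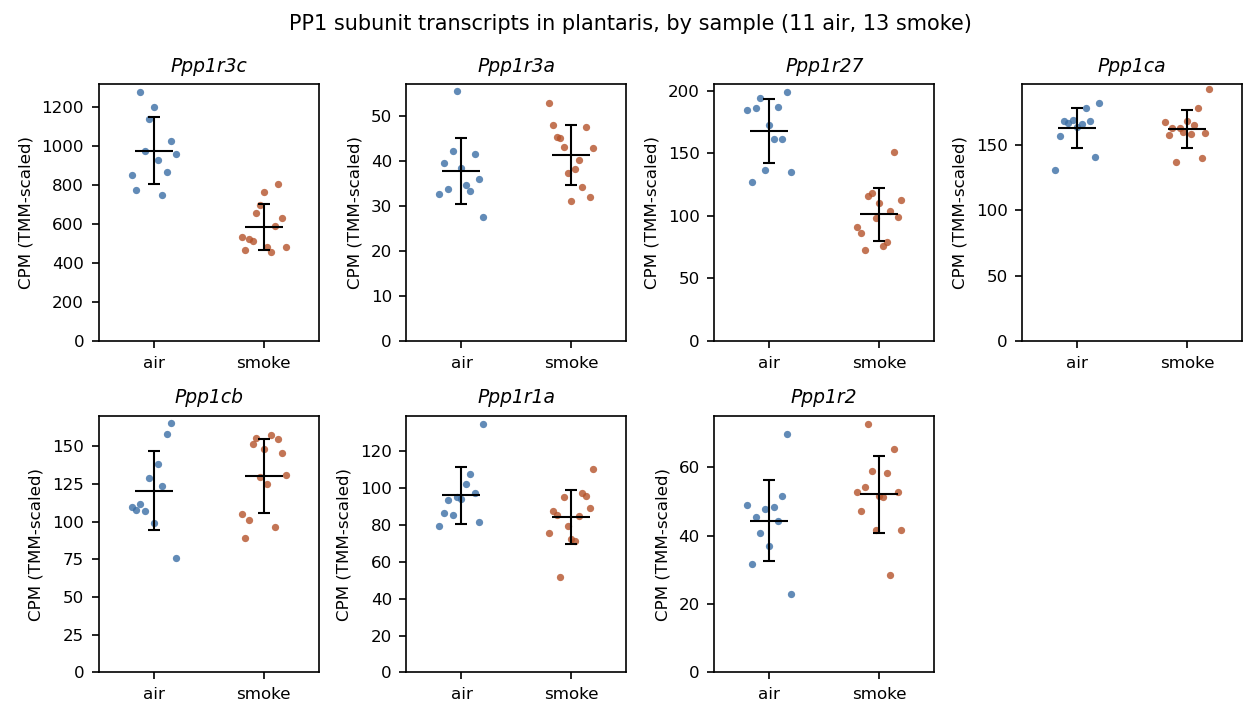
Level of each of the 7 PP1 subunit transcripts that passed the expression filter, in CPM on TMM-scaled libraries (vertical axes from 0), in 11 air and 13 smoke samples; points are samples and bars are mean ± SD. Ppp1r3c has means of 978 CPM (air) and 586 CPM (smoke) and Ppp1r27 of 168 and 101 CPM, while the points of the other 5 genes overlap broadly.

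The second gene that was lower under smoke was Ppp1r27, a small ankyrin-repeat regulatory subunit of PP1 (chromosome 11, 120549979 to 120551132, minus strand). It ranged from 127 to 199 CPM in air (median 173) and from 72.5 to 151 CPM in smoke (median 99.2). Here 12 of 13 smoke samples lay below every air sample, and smoke replicate 11 was the exception. The means were 168 ± 25.3 CPM (SD, n = 11) and 101 ± 21.4 CPM (SD, n = 13), a log2 fold change of −0.73 (SE 0.095). The number of Ppp1r3c reads per Ppp1r27 read was 5.94 ± 1.27 in the 11 air samples (SD) and 5.88 ± 0.927 in the 13 smoke samples (SD).

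The catalytic subunits are the enzyme itself and are shared by all targeting subunits. Ppp1ca (alpha) ranged from 131 to 182 CPM in air (median 167) and from 137 to 193 CPM in smoke (median 163). It was the steadiest gene of the set, with a spread between samples of 9.27% in air and 8.88% in smoke. Its log2 fold change was −0.0049 (SE 0.058), with a 95% interval from −0.12 to 0.11.

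Ppp1cb (beta), the main catalytic form on glycogen and on myosin in muscle, ranged from 75.6 to 166 CPM in air (median 111) and from 89.0 to 157 CPM in smoke (median 131). Its log2 fold change was 0.11 (SE 0.10), with a 95% interval from −0.11 to 0.32. Ppp1ca overlaps Rad9a, and Ppp1cb overlaps predicted gene models on both strands, as Ppp1r3b, Ppp1cc and Ppp1r2 each overlap 1; whether strand was used in counting was not stated, so their levels are uncertain to that extent.

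Ppp1cc (gamma) had 46 counts in total in air and 47 in smoke, from 0 to 9 per sample, and did not pass the filter. Reads at a transcript end outside the annotation are not counted, so a low count need not mean a low transcript level. Of the catalytic reads, Ppp1ca took 57.6 ± 6.45% in the 11 air samples (SD) and 55.6 ± 5.98% in the 13 smoke samples (SD), and Ppp1cb nearly all the rest. Reads of Ppp1r3c per catalytic read were 3.46 ± 0.682 (SD) in air, from 2.47 to 4.55, and 2.00 ± 0.37 (SD) in smoke, from 1.41 to 2.72.

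Ppp1r1a (inhibitor 1), which blocks PP1 once phosphorylated by PKA, ranged from 79.7 to 135 CPM in air (median 94.4) and from 51.6 to 110.3 CPM in smoke (median 85.3). Of the smoke samples 11 of 13 lay below the air mean, 5 of them below every air sample, yet the groups overlapped. The log2 fold change was −0.19 (SE 0.089), with a 95% interval from −0.38 to −0.0043, and it was not called.

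Ppp1r2 (inhibitor 2), a phosphatase chaperone and inhibitor, ranged from 22.8 to 69.6 CPM in air (median 45.4) and from 28.4 to 72.5 CPM in smoke (median 52.6). The log2 fold change was 0.22 (SE 0.12), with a 95% interval from −0.035 to 0.48, and 10 of 13 smoke samples lay above the air mean. Its 7 processed copies in the genome, Ppp1r2-ps1 among them, held 1 count in all samples together, so few reads were assigned to them. Neither inhibitor was called.

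Of the 10 genes, 7 passed the expression filter and 2 were called, Ppp1r3c and Ppp1r27, both lower, where 1.92% of all 10159 tested genes were called in either direction, 1.19% lower and 0.728% higher. Since these genes were listed for that difference, nothing is read from the count. Groups that did not overlap were seen for 0 of the 7 genes and for 0.0295% of tested genes, or 0.0197% with smoke lower. In the fit with an index of clock gene expression as a covariate, described below, neither gene was called and the fold changes were −0.49 (SE 0.13) for Ppp1r3c and −0.39 (SE 0.12) for Ppp1r27. In the same fit Ppp1r2 was at 0.57 (SE 0.17), Ppp1cb at 0.42 (SE 0.14) and Ppp1ca at −0.14 (SE 0.082), none of them called. Without air replicate 11 Ppp1cb was at 0.051 (SE 0.096), and without air replicate 5 Ppp1r3a was at 0.198 (SE 0.088).

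Genes of glycogen synthesis, breakdown and its control were examined as a list of 24 symbols, 21 of which were tested. By the edgeR quasi-likelihood test 0 of 21 were called, with 2 at an unadjusted p under 0.05, and DESeq2 and voom also called 0. Fold changes were positive for 14 genes and negative for 7, and the median log2 fold change was 0.048 against 0.0066 over all tested genes. Gys1, muscle glycogen synthase and a substrate of the targeted phosphatase, was at 457 ± 42.6 CPM in the 11 air samples (SD) and 412 ± 39.3 CPM in the 13 smoke samples (SD), log2 fold change −0.15 with SE 0.056 and adjusted p = 0.173 by edgeR. In 12 of 13 smoke samples it lay under the mean of air.

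Pygm, muscle glycogen phosphorylase, was at 1321 ± 212 CPM in the 11 air samples (SD) and 1276 ± 105 CPM in the 13 smoke samples (SD) (log2 fold change −0.050, SE 0.066, edgeR adjusted p = 0.781). The phosphorylase kinase subunits Phka1 and Phkg1 had log2 fold changes of 0.078 (SE 0.064) and 0.11 (SE 0.072), with edgeR adjusted p of 0.612 and 0.513. Ugp2, which makes the UDP-glucose used for synthesis, was at −0.084 (SE 0.058, edgeR adjusted p = 0.521). The branching enzyme gene Gbe1 was at −0.064 (SE 0.11) and Stbd1, a glycogen-binding anchor, at 0.23 (SE 0.20), with edgeR adjusted p of 0.852 and 0.648. Over the list, log2 fold changes lay between −0.17 and 0.32, and none passed the test.

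**Figure D2:**
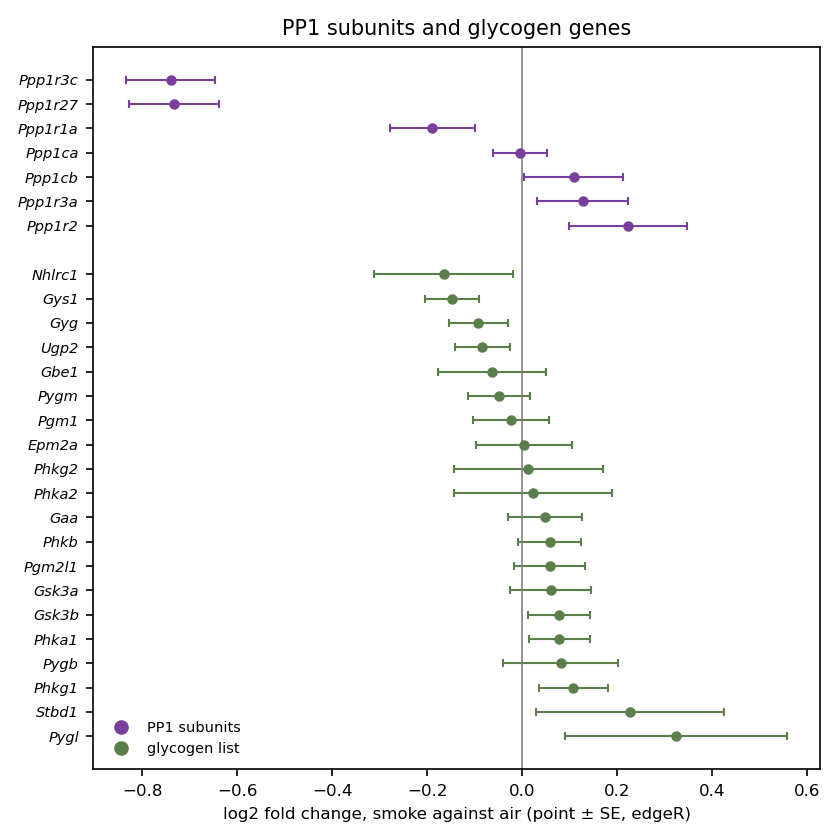
Log2 fold change of smoke against air (horizontal axis, point ± SE from edgeR) for the 7 tested PP1 subunits (purple) and 20 of the 21 tested glycogen genes (green). Ppp1r3c at −0.74 and Ppp1r27 at −0.73 lie to the left of all other genes shown, and the glycogen genes shown lie between −0.17 (Nhlrc1) and 0.32 (Pygl).

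Other PP1 regulatory subunits were taken as a list of 38 genes, 24 of them tested. edgeR called 0 of 24, with 4 at an unadjusted p under 0.05 and 0 called by DESeq2 or voom. Fold changes were positive for 12 and negative for 12, with a median log2 fold change of −0.0062. Without air replicate 11, and likewise without smoke replicate 11, edgeR called 1 gene of this list as lower, the myosin-targeting subunit Ppp1r12b, and with no expression filter it called Ppp1r42 as higher. Ppp1r12b, named after its values were seen, was at 199 ± 18.2 CPM in the 11 air samples (SD) and 177 ± 17 CPM in the 13 smoke samples (SD), log2 fold change −0.17 with SE 0.058 and adjusted p = 0.126 by edgeR, and 12 of 13 smoke samples lay under the mean of air.

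Of 11 tested genes of PKA signalling, which acts against PP1 on glycogen enzymes, edgeR called 0, with 0 at an unadjusted p under 0.05 and 0 called by DESeq2 or voom. Their log2 fold changes lay between −0.10 and 0.091. Of 7 tested catalytic subunits of other phosphatases of the same family, edgeR likewise called 0, with 0 at an unadjusted p under 0.05 and 0 by DESeq2 or voom, and log2 fold changes lay between −0.086 and 0.23. No gene of either list passed the test.

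Within each group the genes were set in order of level. Since the family was selected on Ppp1r3c and Ppp1r27 in smoke and air, the places of those genes are given as a description. The p-values of their pairs are not printed, although those pairs are among the 18 over which the adjustment below was made. In air the order of mean CPM was Ppp1r3c, Ppp1r27, Ppp1ca, Ppp1cb, Ppp1r1a, Ppp1r2, Ppp1r3a, Ppp1cc, Ppp1r3d and Ppp1r3b. Of its 7 pairs of neighbours without Ppp1r3c and Ppp1r27, 4 differed by two-sided exact sign-flip permutation tests on log2 CPM within samples, adjusted by Benjamini-Hochberg over the 18 pairs of both groups. They were Ppp1ca over Ppp1cb by 0.46 ± 0.38 log2 units (SD, n = 11, exact p = 0.00293, adjusted p = 0.00586), Ppp1r1a over Ppp1r2, Ppp1r3a over Ppp1cc, and Ppp1r3d over Ppp1r3b. The last rests on 0 to 5 counts per sample. Ppp1r3c stood 2.54 ± 0.31 log2 units (SD, n = 11) above Ppp1r27, in 11 of 11 samples, and Ppp1r27 stood 0.032 ± 0.30 log2 units (SD, n = 11) above Ppp1ca, in 6 of 11. Ppp1cb and Ppp1r1a (exact p = 0.0518, adjusted p = 0.0665, n = 11), Ppp1r2 and Ppp1r3a (exact p = 0.133, adjusted p = 0.159), and the low pair Ppp1cc and Ppp1r3d (exact p = 0.562, adjusted p = 0.633) were not separated.

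In smoke Ppp1r27 stood 4th, which restates its selected difference. Ppp1ca was below Ppp1r3c by 1.83 ± 0.33 log2 units (SD, n = 13), and Ppp1cb was above Ppp1r27 in 12 of 13 smoke samples. Of the 6 pairs without Ppp1r3c and Ppp1r27, 5 differed by the same test. They were Ppp1ca over Ppp1cb by 0.34 ± 0.35 log2 units (SD, n = 13, exact p = 0.00537, adjusted p = 0.00967), Ppp1r1a over Ppp1r2, Ppp1r2 over Ppp1r3a, Ppp1r3a over Ppp1r3d, and Ppp1cc over Ppp1r3b, the last on 0 to 6 counts per sample. Ppp1r3d and Ppp1cc were not separated (exact p = 0.949, adjusted p = 0.949, n = 13). Among the pairs without Ppp1r3c and Ppp1r27, leaving out each sample in turn kept the count at 5 in smoke and at 4 in air, except that it was 5 without air replicate 11.

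To ask whether the subunits vary together from sample to sample, 6 relations were tested within each group on log2 CPM, and 0 of 12 passed Benjamini-Hochberg adjustment. The strongest was Ppp1r3c with Ppp1r27 in smoke (n = 13), with Pearson's r 0.667 (permutation p = 0.0125, adjusted p = 0.149) and Spearman's rho 0.538 (permutation p = 0.0625, adjusted p = 0.75), and r was 0.459 without replicates 7 and 11. In air (n = 11) the same pair had r 0.157 (permutation p = 0.64, adjusted p = 0.984) and rho 0.191 (permutation p = 0.575, adjusted p = 0.946). The difference of r between the groups was not tested. Ppp1r3c with Gys1 had r 0.0068 in air (n = 11, permutation p = 0.984) and 0.010 in smoke (n = 13, permutation p = 0.973), with rho 0.027 (permutation p = 0.946) and 0.104 (permutation p = 0.738) and adjusted p of 0.984 for r in both.

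**Figure D3:**
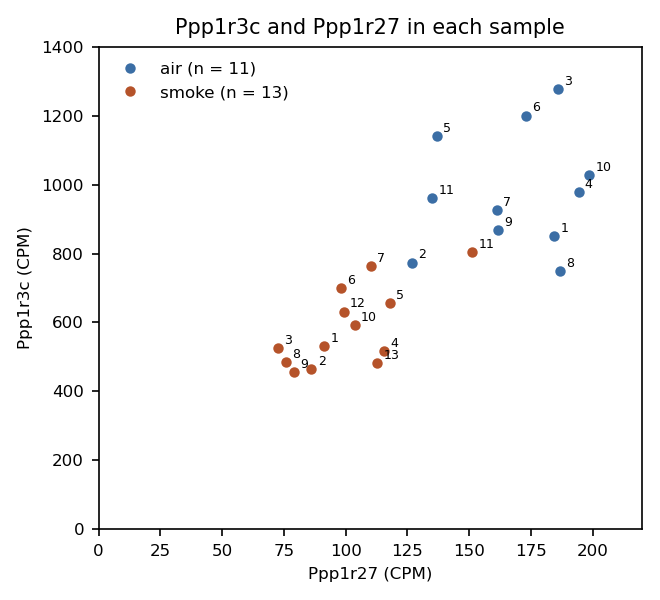
Ppp1r3c (vertical axis) against Ppp1r27 (horizontal axis), both in CPM, with 1 point per sample labelled by its replicate number, air in blue and smoke in orange. Smoke replicate 11, at 804 and 151 CPM, is the smoke sample highest in both genes and lies among the air samples.

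Ppp1r3c and Ppp1r27 were set beside clock gene expression. The clock index was the mean log2 CPM of 7 genes (Dbp, Hlf, Nr1d1, Nr1d2, Per2, Per3 and Tef) minus that of 3 genes that peak at another time of day (Arntl, Clock and Nfil3). It ranged from 0.56 to 1.70 in air and from 0.97 to 2.65 in smoke. Of its 10 genes edgeR called 4: Dbp (log2 fold change 1.18, adjusted p = 4.86e-05), Per3 (0.45, 0.0172) and Nr1d2 (0.28, 0.0216) were higher and Nfil3 (−1.31, 1.31e-06) lower under smoke. The other 6 were not called, with log2 fold changes from −0.47 for Arntl to 0.15 for Nr1d1. In smoke (n = 13) Ppp1r3c had r −0.737 with the index (permutation p = 0.00395, adjusted p = 0.0079 over 4 relations chosen after the data were seen) and rho −0.742 (permutation p = 0.00514, adjusted p = 0.019). Ppp1r27 had r −0.737 (permutation p = 0.0039, adjusted p = 0.0079) and rho −0.698 (permutation p = 0.0095, adjusted p = 0.019). Without smoke replicates 5 and 11, which had the lowest index, r was −0.569 (permutation p = 0.0688) for Ppp1r3c and −0.441 (permutation p = 0.172) for Ppp1r27, so both were weaker and neither had a p under 0.05 without these samples.

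In air (n = 11) r with the index was 0.033 (permutation p = 0.923, adjusted p = 0.923) for Ppp1r3c and −0.377 (permutation p = 0.254, adjusted p = 0.338) for Ppp1r27, with rho 0.073 (permutation p = 0.839, adjusted p = 0.839) and −0.455 (permutation p = 0.164, adjusted p = 0.219). Without air replicates 7 and 10, r was 0.199 and −0.274. Whether the relation differs between air and smoke was not tested. The hour at which muscles were taken was not given in the sources used here, and the part of clock state in the lower Ppp1r3c and Ppp1r27 was not tested beyond the fit with the index as a covariate.

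**Figure D4:**
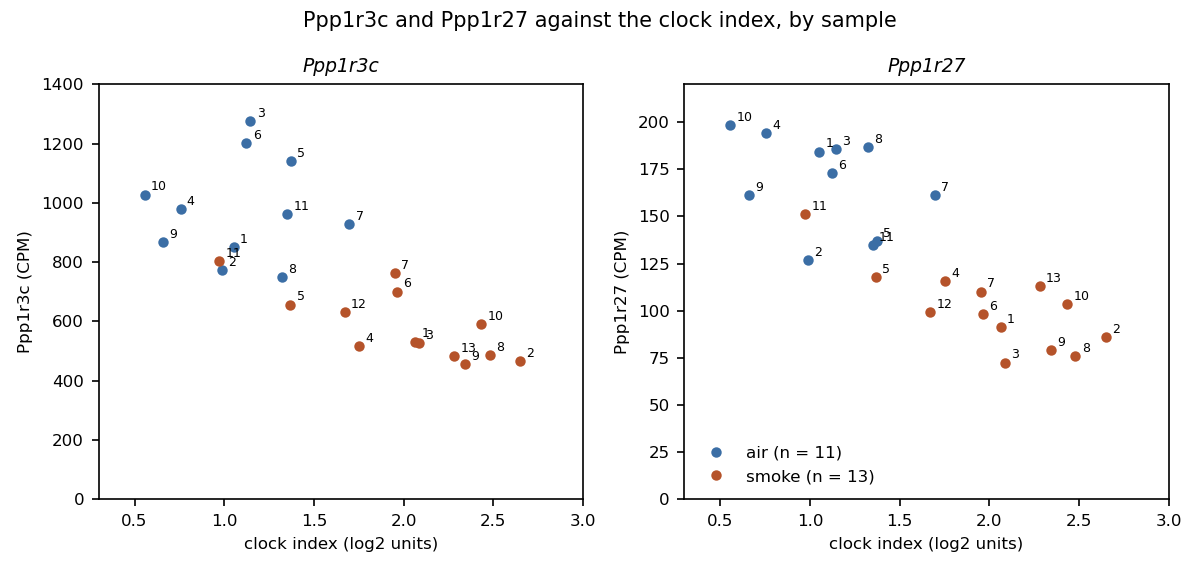
Ppp1r3c (left) and Ppp1r27 (right) in CPM against the clock index in log2 units, with 1 point per sample labelled by replicate number, 11 air samples in blue and 13 smoke samples in orange. Smoke replicate 11 has the lowest index of its group, 0.97, and the highest level of both genes, while the 7 smoke samples of highest index lie at or below 592 CPM of Ppp1r3c.

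All 21 pairs of the 7 tested genes were correlated within each group after the data were seen, and 1 of 42 relations passed adjustment. Ppp1cb and Ppp1r2 in air (n = 11) had r 0.901 (permutation p = 0.00028, adjusted p = 0.0118) and rho 0.873 (permutation p = 9e-04, adjusted p = 0.0378), with r 0.687 without replicates 10 and 11. In smoke (n = 13) r was 0.586 (permutation p = 0.0295, adjusted p = 0.247) and rho 0.676 (permutation p = 0.0133, adjusted p = 0.187), with r 0.407 without replicates 2 and 10.

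Ppp1ca and Ppp1r1a had r 0.787 in air (n = 11, permutation p = 0.00578, adjusted p = 0.121; rho 0.8, permutation p = 0.00453) and 0.585 in smoke (n = 13, permutation p = 0.0425, adjusted p = 0.255; rho 0.324, permutation p = 0.282). Without replicates 4 and 13 the value in smoke was −0.167, so it rests on those samples. On the first component of the expression of all tested genes, centred within groups (16.0% of variance), Ppp1r2 had r 0.928 and Ppp1cb 0.865, while Ppp1r1a had −0.525 and Ppp1ca −0.483 (n = 24 samples, given as a description). Over all tested genes the 10th and 90th percentiles of r with this component were −0.492 and 0.558, so Ppp1ca lay inside that range, Ppp1r1a just outside it, and Ppp1r2 and Ppp1cb beyond it. Air replicate 11 and smoke replicate 10 lay farthest out on the component, and over the other 22 samples r was 0.846 for Ppp1r2, 0.833 for Ppp1cb, −0.264 for Ppp1r1a and −0.346 for Ppp1ca, a choice made after the data were seen. Ppp1r3c lay near the middle on this component, at r 0.135, and Ppp1r27 at 0.328. The component had r 0.84 with the share of mitochondrial reads and −0.565 with the share of Gm42418, a gene that overlaps ribosomal RNA sequence. The part of library quality in these relations was not tested.

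**Figure D5:**
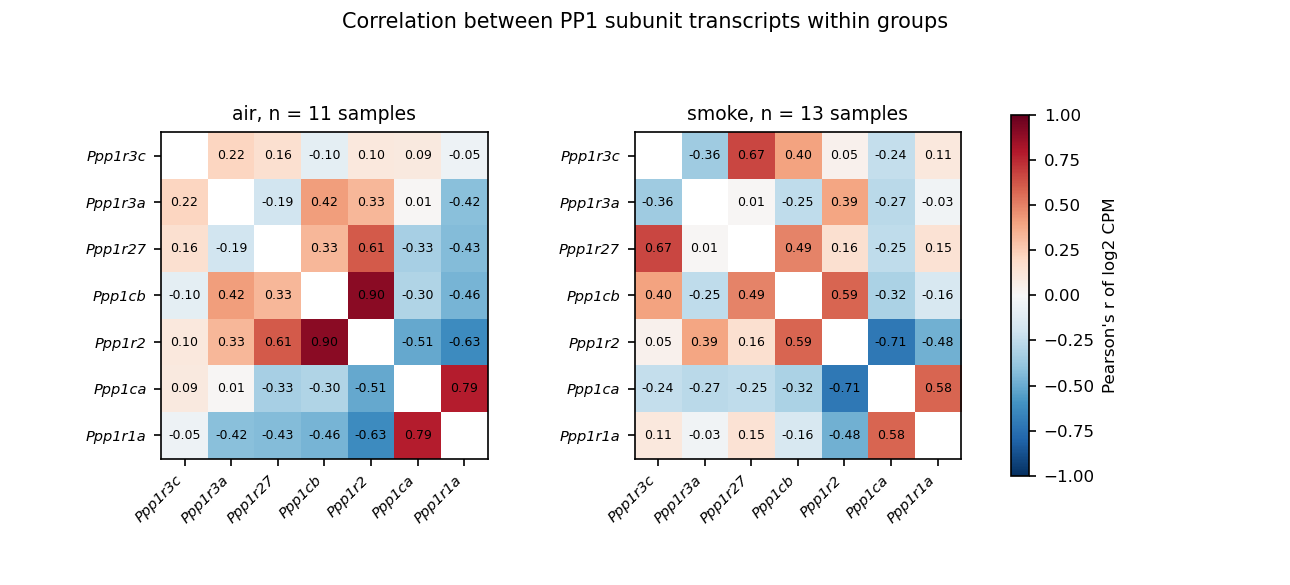
Pearson's r of log2 CPM between the 7 tested PP1 subunit transcripts within the 11 air samples (left) and the 13 smoke samples (right), on a colour scale from −1 to 1. Ppp1cb with Ppp1r2 is positive in both groups (0.90 and 0.59), and Ppp1r3c with Ppp1r27 is 0.16 in air and 0.67 in smoke.

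The genes most like Ppp1r3c were sought among 6077 other genes with a mean of at least 10 CPM, by Pearson's r of log2 CPM centred within groups over 24 samples. They were Med28, a Mediator subunit (r 0.676), Cyld, a deubiquitinase (0.65), 1700120C14Rik (0.644), Zbtb16, a zinc-finger repressor (0.642), and Ppil2, a cyclophilin-type protein (0.64). Their own log2 fold changes under smoke ran from −0.38 (SE 0.13, edgeR adjusted p = 0.114) for Zbtb16 to 0.12 (SE 0.068, edgeR adjusted p = 0.383) for Med28, and none was called. Those most like Ppp1r27 were Jund, an AP-1 subunit (r 0.708), Dennd5a (0.707), Slco5a1 (0.672), Phospho2 (0.659) and Pdlim1, a cytoskeletal adaptor (0.657). Of these Pdlim1 was called, at log2 fold change −0.61 with SE 0.086 and adjusted p = 7.32e-05 by edgeR, and Jund was at −0.40 (SE 0.12, edgeR adjusted p = 0.0703). By this measure Ppp1r27 ranked 62 for Ppp1r3c, at r 0.479, and Ppp1r3a ranked 4261, at −0.095.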

How the data were processed

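Plantaris RNA was sequenced from QuantSeq 3′ FWD libraries, per the labels' protocols, and the authors deposited raw read counts per Ensembl gene ID. The submitters' processing notes name STAR, DESeq2 and the build mm9, while the counting tool, annotation and strand use are not given in the sources used here. The floor of 3 counts covers counting error only, since molecular identifiers are not mentioned, while the 95% intervals of fold changes include the spread between samples. Symbols came from GENCODE M21 (GRCm38), which paired 47224 of 47643 IDs (99.1%), and printed coordinates are on GRCm38, with none converted from mm9.

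Counts were fitted over the whole table with edgeR 4.0.16 (R 4.3.3): filterByExpr with a minimum count of 10, TMM scaling on full library totals, quasi-likelihood F-test of smoke against air, no covariate, Benjamini-Hochberg adjustment over 10159 genes. CPM values use the same scaling, log2 CPM has a prior count of 2, and 95% intervals use the fit's SE with residual degrees of freedom. The procedure was tested on simulated data. Chi-square per gene ran from 2.52 to 18.5 over the 133 within-group pairs, so no samples were merged.

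The members and gene lists were chosen with earlier results of these data known. Named genes were every member, every called gene of each list, 8 glycogen genes chosen by name (Gys1, Pygm, Gbe1, Phka1, Phkg1, Ugp2, Stbd1 and 1 that is not reported here), and the 5 genes most like Ppp1r3c and the 5 most like Ppp1r27. Relations with the clock index, all 21 pairs of members and component 1 were added after the data were seen. Permutation tests used scipy 1.17.1, with 100000 resamples for correlations. Alternatives were other scalings, DESeq2 1.42.0, limma 3.58.1 voom, no filter, a replicate block, clock and blood covariates, and each sample left out.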

Additional observations from a re-analysis of the deposited data

How the results depend on the processing

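The number of genes called over the whole table, 195, became 330 with DESeq2, 49 with the clock index and 56 with the blood score as covariates, and 141 to 254 when samples were left out in turn, the lowest without air replicate 3. The 2 members called stayed at 2 in each of the 24 fits without 1 sample and in 8 of 9 other alternatives. With the clock index it was 0, at log2 fold changes of −0.49 for Ppp1r3c and −0.39 for Ppp1r27; the index had r 0.749 with the group. There Ppp1r2 moved from 0.22 to 0.57 and Ppp1cb from 0.11 to 0.42, neither called. Over the fits without 1 sample the log2 fold change of Ppp1r3c ran from −0.79 to −0.70 and that of Ppp1r27 from −0.80 to −0.70. In the other PP1 subunit list the count rose from 0 to 1 with no expression filter (Ppp1r42) and ran from 0 to 1 when samples were left out; the cause was not tested. The glycogen, PKA and other phosphatase lists stayed at 0 called in every alternative. Neighbours in level that differed, without the pairs of Ppp1r3c and Ppp1r27, were 4 to 5 of 7 in air and 5 of 6 in smoke when samples were left out. Replicate numbers did not pair the samples: deviations of the 11 same-numbered pairs correlated at a mean r of −0.0059, against 0.0011 over 132 other pairs, and with the replicate number as a block 139 genes and the same 2 members, Ppp1r3c and Ppp1r27, were called. With the block and the log2 total count there were 142. For Ppp1r3b, Ppp1r3d and Ppp1cc the fit with no filter gave SEs of 0.63, 0.41 and 0.40 on the log2 scale, so that differences of that size are beyond this depth; none of the 3 was called.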
